A study of Saccharomyces cerevisiae with 6 samples.

Results

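The PRM genes of Saccharomyces cerevisiae encode pheromone-regulated membrane proteins, and all 10 of them (PRM1 to PRM10) were measured here among 5449 genes of this yeast. They were chosen by gene name. Brightness entered only the choice of probe set, since PRM7 had 2 probe sets and the one with the higher mean over the 6 arrays was used. PRM15, whose name is similar, is no member of this family and was left out. The genes were proposed for description with results of these arrays already known, so that their counts below describe them and support nothing further.

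In haploid yeast, mating pheromone from the opposite mating type binds a receptor at the cell surface and activates a G protein and a cascade of protein kinases. The cascade ends at the transcription factor Ste12, which switches on genes for cell cycle arrest, adhesion, fusion of the plasma membranes and fusion of the nuclei. The PRM genes were grouped as genes that respond to pheromone and whose products have predicted membrane-spanning segments. Prm1 acts in the fusion of the plasma membranes, Prm2 and Prm3 act in the fusion of the nuclei, Prm6 is a potassium transporter, Prm8 and Prm9 belong to the DUP240 family of membrane proteins, and the other members are less well characterised.

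RNA was compared between cells that had overexpressed glutathione S-transferase (GST) and cells that had overexpressed a fusion of GST with Med3 (GST-Med3). Med3 is a subunit of the tail of Mediator, a complex that links transcription factors to RNA polymerase II. There were 3 biological replicates (A to C) of either group, with 1 Affymetrix Yeast Genome 2.0 Array for each. Both groups carried a plasmid of the pEGH type with a galactose-inducible GAL promoter, were grown in SC-ura with galactose and had been induced for 48 h. The strains of the study derive from BY4741, which is MATa with his3Δ1, leu2Δ0, met15Δ0 and ura3Δ0, and the sources used here do not say which derivative gave the RNA. The label of growth names no pheromone.

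The labelled groups and the mating type were checked first. PGD1, the gene of Med3, had log2 signals of 8.24, 8.01 and 8.07 in GST replicates A to C and of 11.85, 11.73 and 11.84 in GST-Med3 replicates A to C. Its level was therefore far higher on each of the 3 arrays labelled GST-Med3. A further 1747 probe sets, with genes outside S. cerevisiae, were read as the array's probe sets for Schizosaccharomyces pombe. RNA of that species was absent from the cultures, so that these probe sets gave the level without a target. Their median was 65.0 to 66.9 signal units (log2 signal of 6.02 to 6.06) and their 95th percentile 7.47 to 7.51 (log2 signal) on the 6 arrays. The genes of a cells, STE2, MFA1, MFA2, AGA2, BAR1, STE6 and ASG7, all lay above that 95th percentile on each of the 6 arrays. Of the genes of alpha cells, MF(ALPHA)1 and MF(ALPHA)2, which encode the alpha-factor pheromone, lay below it on each array, whereas STE3, the receptor for a-factor, and SAG1, the alpha-agglutinin, lay above it on each array.

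Of the 10 PRM genes, 7 had a higher level and 3 a lower level with GST-Med3 than with GST, and for each of them all 3 GST-Med3 arrays lay beyond all 3 GST arrays. PRM6, PRM3, PRM1, PRM5, PRM10, PRM7 and PRM2 were higher, by 1.62-fold for PRM6 down to 1.13-fold for PRM2. PRM8, PRM4 and PRM9 were lower, by 1.63-fold, 1.63-fold and 1.57-fold. No member reached a 2-fold difference on the deposited scale, which 0.637% of all probe sets did upwards and 1.20% downwards. The authors' own list of upregulated genes, at a 2-fold cutoff and after their normalization, does hold PRM6 and PRM3. In RNA from whole cultures, fewer cells that express a gene and less RNA per cell cannot be told apart.

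All 10 differences passed the test with limma (two-sided, Benjamini-Hochberg adjusted over 5498 probe sets, threshold of 0.05), and the highest adjusted p was 0.000749, for PRM2. Such differences were common over the whole array. Of all probe sets tested, 27.1% were higher and 47.8% lower past the same test, 74.9% in all. The groups did not overlap for 75.0% of the probe sets, 26.6% with GST-Med3 higher and 48.4% with GST-Med3 lower. With the arrays centred on their medians, 43.6% were higher and 41.7% lower past the test, 85.3% in all, and the groups did not overlap for 85.4%. The median log2 difference, GST-Med3 minus GST, was 0.27 over the 10 PRM genes and -0.085 over all probe sets. After centring it was 0.37 over the PRM genes and 0.01 over all probe sets. As deposited, limma gave every log2 difference the same standard error of 0.05, where the median standard error with centred arrays was 0.024. The SD of single members within a group lay between 0.01 and 0.08 (log2 signal, n = 3).

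**Figure D1:**
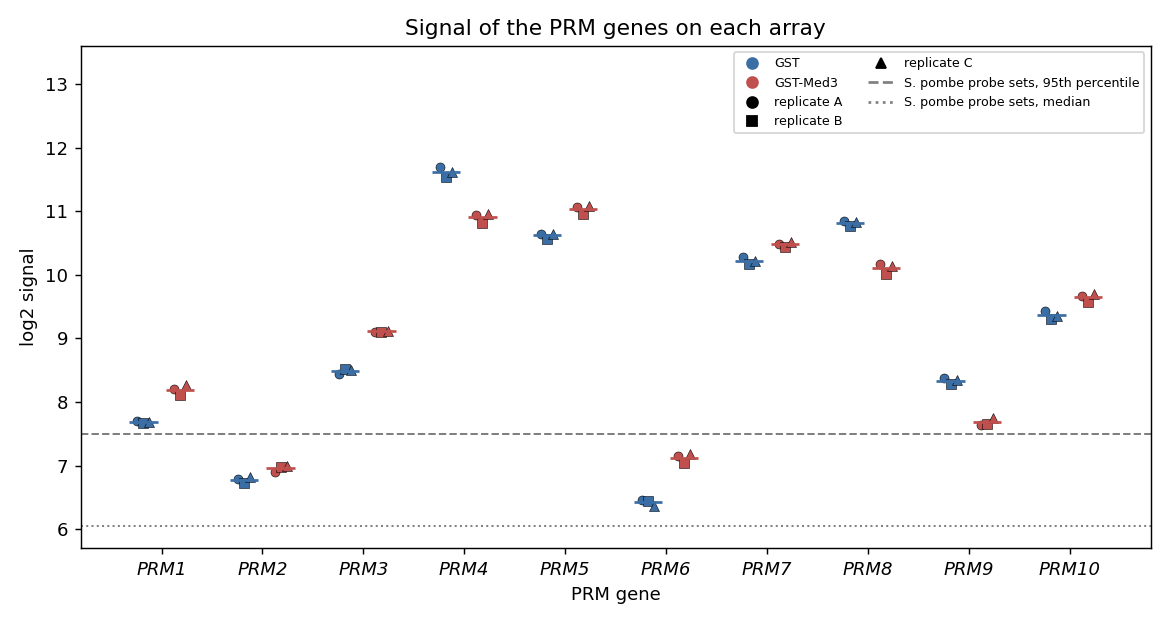
Log2 signal (vertical axis) of each PRM gene (horizontal axis) on the 3 GST arrays (blue) and the 3 GST-Med3 arrays (red), with a marker for each replicate and a bar at the mean of each group. The dashed and dotted lines give the 95th percentile and median over S. pombe probe sets, averaged over the 6 arrays, and only PRM2 and PRM6 lie below the dashed line in both groups.

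Among the genes of membrane and nuclear fusion, PRM1, PRM3 and PRM2 were all higher in cells with GST-Med3. PRM1 (YNL279W) had log2 signals of 7.71, 7.67 and 7.68 on GST replicates A to C and of 8.21, 8.11 and 8.27 on GST-Med3 replicates A to C. The highest GST array and the lowest GST-Med3 array were 0.40 apart, whereas the widest range within a group was 0.16. Its log2 difference was 0.51 ± 0.05 (SE), between means of 7.69 ± 0.02 in the GST group and 8.19 ± 0.08 in the GST-Med3 group (SD, n = 3 each). Prm1 is found where mating cells touch, and mutants that lack it often stop with their membranes side by side.

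PRM3 (YPL192C) encodes a protein of the nuclear envelope that is needed for the envelopes of mated cells to fuse. It had log2 signals of 8.43, 8.51 and 8.50 with GST and of 9.10, 9.10 and 9.12 with GST-Med3. The GST-Med3 arrays were nearly equal, with an SD of 0.01, and lay well above the GST arrays. The log2 difference was 0.63 ± 0.05 (SE), a 1.54-fold increase that was the 207th largest among the 5498 probe sets.

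PRM2 (YIL037C), whose product helps in nuclear fusion, had the smallest difference of the family. Its log2 signals were 6.80, 6.73 and 6.81 with GST and 6.90, 6.98 and 6.99 with GST-Med3. The groups were 0.08 apart, less than the widest range of 0.10 within a group, and PRM2 was the only member of which this was true. The log2 difference was 0.18 ± 0.05 (SE), with a 95% interval from 0.08 to 0.27 as deposited. It was 0.27 after centring and 0.41 ± 0.09 (SE) after background subtraction, so that the size of this difference depended on the scaling. PRM2 was dim, since 88.2% to 91.6% of the S. pombe probe sets of the same array lay below it, and it did not pass a filter at the 95th percentile of these probe sets.

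PRM6 (YML047C, also called KCH2) encodes a potassium transporter whose activity accompanies calcium influx during the pheromone response, and it had the largest increase of the family. Its signals were 88.0, 86.9 and 82.4 units on GST replicates A to C and 141.9, 131.8 and 144.6 units on the GST-Med3 replicates. These correspond to log2 signals of 6.46, 6.44 and 6.37 with GST and of 7.15, 7.04 and 7.18 with GST-Med3. All 6 arrays lay below the S. pombe 95th percentile, and the GST arrays stood little above the S. pombe medians of 65.0 to 66.9 units. The log2 difference as deposited was 0.70 ± 0.05 (SE). When the median of the S. pombe probe sets was subtracted from each array, it was 1.91 ± 0.12 (SE), a 3.75-fold difference, so that the size of the change in PRM6 depended on how the background was treated. No array of any PRM gene reached the floor of 16 units set after this subtraction. PRM6 came close to it in the GST group, with a geometric mean of 19.5 units, against 73.2 units in the GST-Med3 group. The 3.75-fold difference of PRM6 therefore rests on a GST level near that floor.

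KCH1, the paralog of PRM6, was well above background and was also higher. Its log2 signals were 9.23, 9.19 and 9.20 with GST and 9.73, 9.62 and 9.77 with GST-Med3, without overlap, and the log2 difference was 0.50 ± 0.05 (SE). Of 8 listed genes of potassium and calcium transport, KCH1 included, 2 were higher, 3 were lower and 3 did not pass the test, shares close to or below the 27.1% of all probe sets that were higher and the 47.8% that were lower. With centred arrays 5 were higher, against 43.6% of all probe sets. FIG1, a membrane protein of calcium influx in mating, was higher by 1.23 (log2 difference) as deposited, from GST levels below the S. pombe 95th percentile. The potassium transporter gene TRK1 and the potassium channel gene TOK1 were lower, with log2 differences of -0.34 and -0.31.

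PRM5 (YIL117C) responds to cell integrity signalling through the transcription factor Rlm1 in addition to pheromone. It had log2 signals of 10.65, 10.56 and 10.65 with GST and of 11.07, 10.95 and 11.09 with GST-Med3, with a gap of 0.30 between the groups. The log2 difference was 0.42 ± 0.05 (SE), or 1.34-fold. Its paralog YNL058C had log2 signals of 8.71, 8.68 and 8.67 with GST and of 9.39, 9.38 and 9.42 with GST-Med3. Both paralogs were therefore higher on each GST-Med3 array, with a log2 difference of 0.71 ± 0.05 (SE) for YNL058C. Of 15 other genes of the Rlm1 and cell integrity list, 8 were higher and 5 were lower, where 27.1% of all probe sets were higher and 47.8% lower. With centred arrays 10 were higher and 4 lower, against 43.6% and 41.7% of all probe sets. PIR1 and PIR3, which encode cell wall proteins linked to glucan, had log2 differences of 0.93 and 0.40, CRH1, which links chitin to glucan, had 0.61, and DFG5, a protein of cell wall assembly, had 0.33. Other cell wall proteins of the list were lower, among them CWP1 with -0.32, PST1 with -0.31 and HSP150, which belongs to the PIR family, with -0.21. These 3 were named after their values were seen.

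PRM7 and PRM10 had small increases on signals well above background. PRM7 (YDL039C) had log2 signals of 10.29, 10.17 and 10.21 with GST and of 10.49, 10.43 and 10.52 with GST-Med3. Its log2 difference was 0.26 ± 0.05 (SE), and the 2 groups were 0.15 apart with a widest range of 0.12 within a group. The second probe set of PRM7, which was dimmer, gave log2 signals of 8.69, 8.60 and 8.64 with GST and of 9.02, 8.97 and 9.04 with GST-Med3. Both probe sets were thus higher with GST-Med3, and the log2 difference of the second was 0.36 ± 0.05 (SE). PRM10 (YJL108C) had log2 signals of 9.43, 9.30 and 9.36 with GST and of 9.67, 9.57 and 9.70 with GST-Med3. Its log2 difference was 0.28 ± 0.05 (SE), with a gap of 0.14 between the groups and a widest range of 0.13 within a group.

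PRM4 (YPL156C) went the other way, on a bright signal. Its log2 signals were 11.69, 11.54 and 11.62 on GST replicates A to C and 10.94, 10.82 and 10.96 on GST-Med3 replicates A to C. The lowest GST array exceeded the highest GST-Med3 array by 0.58, and the log2 difference was -0.71 ± 0.05 (SE). This was the 173rd largest decrease among the 5498 probe sets.

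PRM8 (YGL053W) and PRM9 (YAR031W) were also lower, together with the other measured genes of the DUP240 family, a group of related membrane proteins of which some carry signals for the vesicle coats COPI and COPII. PRM8 had log2 signals of 10.84, 10.77 and 10.83 with GST and of 10.16, 10.02 and 10.13 with GST-Med3. The gap of 0.60 between the groups was the widest of the 10 members, and the log2 difference was -0.71 ± 0.05 (SE), the 172nd largest decrease. PRM9 had log2 signals of 8.38, 8.28 and 8.34 with GST and of 7.64, 7.66 and 7.75 with GST-Med3. Its GST-Med3 arrays came close to the S. pombe 95th percentile without falling below it, and the log2 difference was -0.65 ± 0.05 (SE) as deposited and -0.88 ± 0.06 (SE) after background subtraction.

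Of the 8 planned DUP240 genes outside the PRM family, 3 were matched to a probe set, and all 3 were lower, where 47.8% of all probe sets were lower past the same test. MST27, which lies next to PRM8 in the genome, had a log2 difference of -0.28, and MST28, which lies next to PRM9, had -0.35. The -0.35 of MST28 came from a probe set of the array's _s_at type, which can match several genes. A second, dimmer probe set of MST28, not of that type, had -0.41. Mst27 and Mst28 bind each other and were found as suppressors of a COPI mutant. UIP3, a protein of the nuclear envelope, had -0.26. DUP240 genes are alike in sequence, so that their RNAs may share probes. How far the signals of PRM8, PRM9, MST27 and MST28 are separate was not tested.

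**Figure D2:**
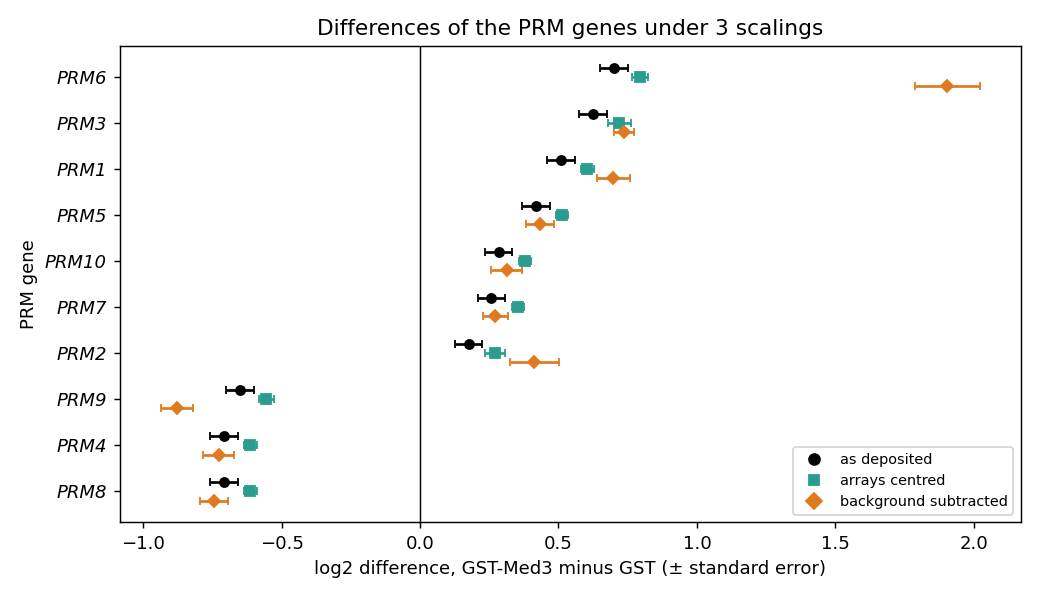
Log2 difference of each PRM gene, GST-Med3 minus GST, with its standard error (horizontal axis), in the order of the deposited difference (vertical axis), as deposited (black), after centring of the arrays (green) and after subtraction of the S. pombe median (orange). The direction of each gene is the same under the 3 scalings, and PRM6 moves from 0.70 to 1.91.

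Replicates varied in a common way among the PRM genes. GST replicate B was the lowest of its group for 8 of the 10 genes, and GST-Med3 replicate B was the lowest of its group for 7. Replicate B also had the lowest median over all S. cerevisiae probe sets in each group, 9.99 with GST and 9.87 with GST-Med3 (log2 signal). GST-Med3 replicate C was the highest of its group for 9 of the 10 genes. It also had the highest median over all S. cerevisiae probe sets in that group, 9.99 against 9.96 for replicate A. Since the groups did not overlap for any PRM gene, leaving out 1 array could change the size of a difference but not its direction. With each array left out in turn, the log2 difference ranged from 0.67 to 0.74 for PRM6 and from 0.15 to 0.20 for PRM2, and from -0.75 to -0.66 for PRM4.

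**Figure D3:**
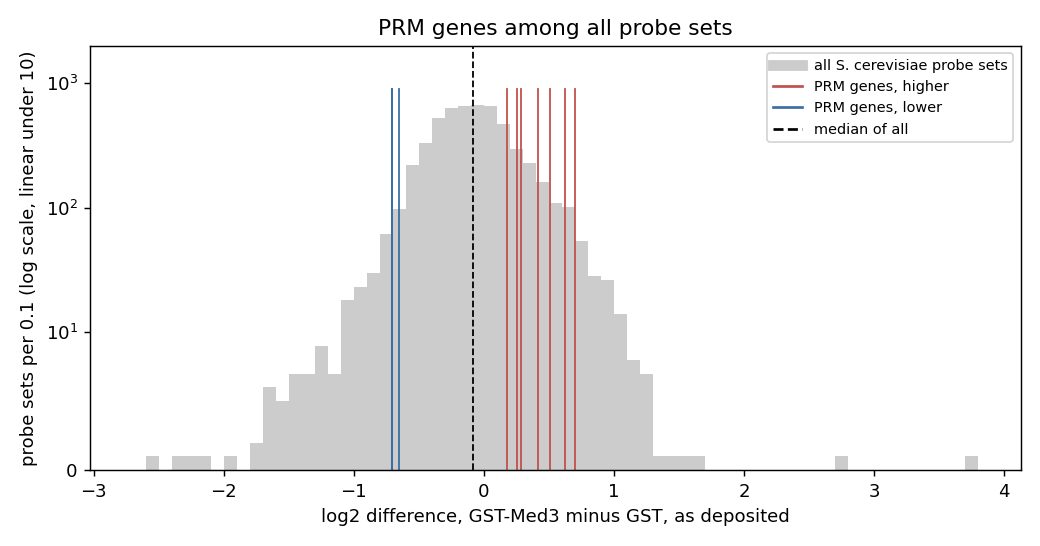
Number of S. cerevisiae probe sets (vertical axis, logarithmic above 10) by log2 difference, GST-Med3 minus GST, as deposited (horizontal axis), in grey, with a vertical line for each of the PRM genes that were higher (red) or lower (blue) and the median of all probe sets (dashed). The higher PRM genes lie between 0.18 and 0.70 and the lower ones between -0.71 and -0.65, inside the range of all probe sets, which runs from -2.56 to 3.70.

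Within this range, the 7 higher PRM genes ranked from 144th (PRM6) to 1143rd (PRM2) among the increases of the 5498 probe sets. Those of PRM1, PRM5, PRM10 and PRM7 ranked 342nd, 483rd, 791st and 863rd. The 3 lower ones, PRM8, PRM4 and PRM9, ranked 172nd, 173rd and 216th among the decreases.

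Other genes that mating pheromone induces were mostly higher as well. Of 21 such genes outside the PRM family, 15 were higher, 2 were lower and 4 did not pass the test, with a median log2 difference of 0.32. This count stands beside the share of 27.1% of all probe sets that were higher. With centred arrays 17 were higher and 2 lower, against 43.6% and 41.7% of all probe sets. AGA1, the anchor subunit of a-agglutinin, had a log2 difference of 1.62 and no overlap between the groups. FIG1 had log2 signals of 7.02, 6.92 and 6.96 with GST, below the S. pombe 95th percentile, and of 8.22, 8.12 and 8.25 with GST-Med3. Its difference was 2.34-fold as deposited and 3.85-fold after background subtraction. Both genes were more than 2-fold higher on the deposited scale, which 0.637% of all probe sets were. FUS1, a membrane protein at the tip of mating cells that acts in cell fusion, had a log2 difference of 0.69, and PCL2, a cyclin of the kinase Pho85, had 0.86. PCL2 lay below the S. pombe 95th percentile on all 3 GST arrays, and background subtraction moved its log2 difference to 1.30. The 2 genes that were lower, AFR1 and HYM1, had log2 differences of -0.33 and -0.42 and were named after their values were seen.

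The genes of the signalling cascade itself went both ways. Of 18 genes, 8 were higher, 6 were lower and 4 did not pass the test, with a median log2 difference of 0.10, where 27.1% of all probe sets were higher and 47.8% lower. With centred arrays 12 were higher and 6 lower, against 43.6% and 41.7% of all probe sets. GPA1, the alpha subunit of the G protein, had a log2 difference of 0.56, SST2, which switches the G protein off, had 0.48, and the kinase gene FUS3 had 0.46. These 3 genes are induced by pheromone and stand in both lists, as do FAR1 and STE12, which were also higher. AKR1, a palmitoyl transferase, had -0.43. STE12, the factor through which pheromone acts on transcription, had log2 signals of 9.08, 8.98 and 9.02 with GST and of 9.40, 9.35 and 9.45 with GST-Med3, a log2 difference of 0.37, and was named after its values were seen.

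Of 11 listed genes of cell and nuclear fusion outside the PRM family, 5 were higher, 1 was lower and 5 did not pass the test, where 27.1% of all probe sets were higher and 47.8% lower. With centred arrays 8 were higher, against 43.6% of all probe sets. FUS1, FUS2, FIG1 and KAR5 of this list also stand in the list of pheromone-induced genes. Besides FIG1 and FUS1, the members furthest from 0 were SEC66 (planned as SEC71), a subunit of the protein translocation machinery that also acts in nuclear fusion, with a log2 difference of 0.21, and RVS161, a protein of membrane bending that acts in cell fusion, with -0.24.

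Genes that mark a cells were also higher or, as deposited, did not pass the test. Of 7 such genes, 5 were higher and none was lower, against 27.1% of all probe sets that were higher. With centred arrays all 7 were higher, against 43.6%. MFA1, a gene of a-factor, had a log2 difference of 0.70, BAR1, the protease that degrades alpha-factor, had 0.70, AGA2, the binding subunit of a-agglutinin, had 0.68, and ASG7, an a-cell protein that acts after mating, had 0.60. STE2 and STE6 did not pass the test as deposited, with log2 differences of 0.10 and 0.05, and passed it after centring, with 0.20 and 0.15. Of the 4 alpha-cell genes, STE3 was lower with a log2 difference of -0.45, and SAG1 was higher with 0.37. MF(ALPHA)2 and MF(ALPHA)1, with 0.29 and 0.24, were past the test on levels below the S. pombe 95th percentile on all 6 arrays, and background subtraction moved these log2 differences to 0.76 and 0.64. The part of mating-type genes in the values of the PRM genes was not tested.

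**Figure D4:**
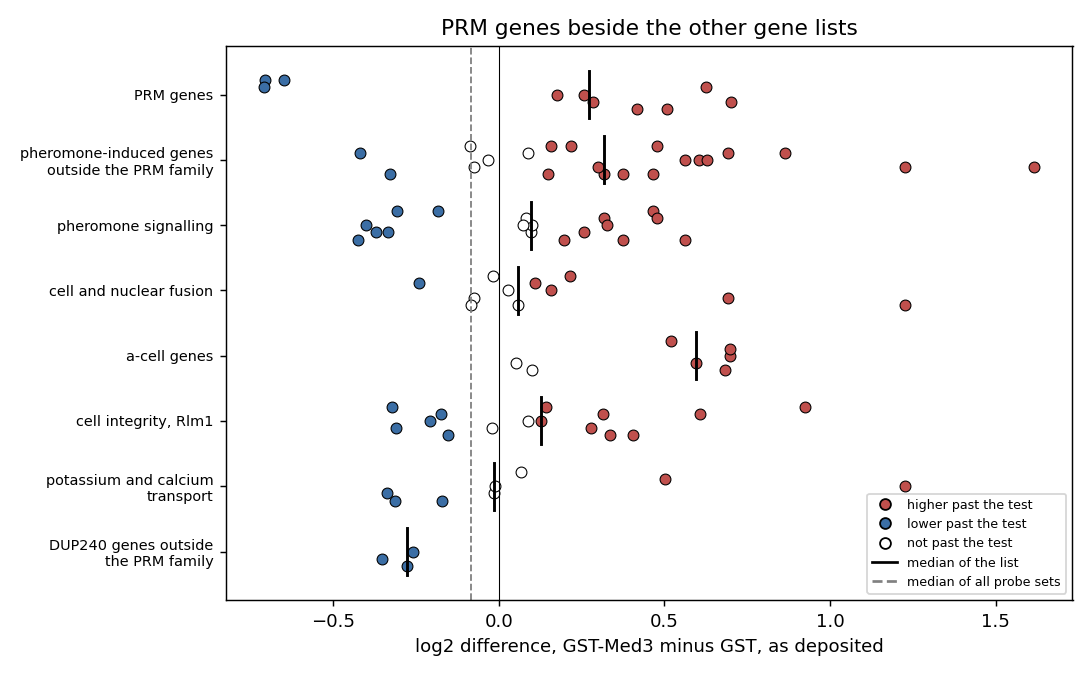
Log2 difference, GST-Med3 minus GST, as deposited (horizontal axis) of the PRM genes and of the genes of 7 other lists (rows), coloured by whether they were higher (red), lower (blue) or not past the limma test (white). Black bars are medians of the lists, 0.27 for the PRM genes and 0.32 for the pheromone-induced genes, the dashed line is the median of all probe sets, -0.085, and some genes stand in more than 1 row.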

How the data were processed

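The authors hybridized RNA of each replicate to 1 Affymetrix Yeast Genome 2.0 Array and deposited 1 log10 signal per probe set and array. That the base is 10 follows from the values, which turn into signals of at most 2 decimals in 100.0% of cells. The authors calculated false discovery rates in ArrayStar after normalization within each experiment. Not given in the sources used here are the methods of background correction and probe summary. Values were converted to log2. Of 10928 probe sets, 5498 matched an S. cerevisiae gene (names of assembly R64) and 3683 had no listed gene. The other 1747 had a gene outside S. cerevisiae and were read as S. pombe, although the annotation used here names no organism. The comparison used lmFit and eBayes of limma 3.58.1 in R 4.3.3. Simulated data were fitted only with the arrays centred, so that they did not test the fit as deposited. The number of arrays limits the precision, and an exact permutation test of 3 against 3 cannot give a p under 0.1. Alternatives were centring, quantile normalization, background subtraction, other variance models, a filter on low values, a replicate block and leaving out each array.

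The members and lists were chosen with earlier results of these data known. Named by rule were all PRM genes, their paralogs, PGD1, up to 4 genes past the test with the largest differences in each list, and all genes of lists of up to 5 genes and of the DUP240 list. NCW2 and 5 DUP240 genes were planned but not used here.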

Additional observations from a re-analysis of the deposited data

How the results depend on the processing

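All 139 alternative values for the 10 PRM genes kept their direction and stayed past the limma test. The highest adjusted p of any member was 0.0211, for PRM2 without moderation of the variance. Subtraction of the S. pombe background moved the log2 difference of PRM6 from 0.70 to 1.91 and that of PRM2 from 0.18 to 0.41, and centring moved that of PRM2 to 0.27. A filter on low values kept 8 of the 10 genes and left out PRM2 and PRM6, so that 5 were higher and 3 lower. Centring raised the number of all probe sets that were higher from 1488 to 2395. It raised that of the 21 pheromone-induced genes from 15 to 17 and that of the 15 cell integrity genes from 8 to 10. That of the 11 fusion genes went from 5 to 8, and that of the 18 genes of the signalling cascade from 8 to 12. That of the 7 a-cell genes went from 5 to 7. That of the 8 potassium and calcium genes went from 2 to 5 (4 after quantile normalization). The replicate letters do not pair the samples by label, and deviations from the group means correlated at 0.03 to 0.06 between arrays of the same letter, with all 3 GST arrays closest to their own letter. This correlation over probe sets cannot see a shift of a whole array, such as the low median of replicate B in both groups, so that it does not settle whether the letters pair the samples. With the letter as a replicate block, 7 PRM genes were higher and 3 lower, as without it, the probe sets past the test went from 1488 higher and 2629 lower to 1711 and 2869, 4 pheromone-induced genes were lower in place of 2, 3 fusion genes were lower in place of 1, and 12 genes of the signalling cascade were higher in place of 8. PRM2 and PRM6 lay below the S. pombe 95th percentile on all 6 arrays, which limits what their fold changes can show.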

Other observations

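The genes next to the PRM genes in assembly R64, chosen by position, went both ways. GSF2 and PRP39, on either side of PRM6, had log2 differences of -0.14 and -0.12, where PRM6 had 0.70. ERG24 and CAF120, on either side of PRM1, had 0.06 and -0.03, and neither passed the limma test. RSA1, next to PRM3, had -0.11. TGS1 and KIP2, on either side of PRM4, had 0.41 and -0.16, where PRM4 had -0.71. RHO3 and HIS5, beside PRM5, had -0.05 and -0.38. NAT1 and BSC1, beside PRM7, had 0.14 and -0.02. NOT3 and CST6, beside PRM2, had 0.25 and 0.12, and UTP10 and YJL107C, beside PRM10, had 0.14 and 0.22. Both neighbours of these 2 genes were higher past the test, as were 27.1% of all probe sets. MST27, beside PRM8, and MST28, beside PRM9, were lower with -0.28 and -0.35, where 47.8% of all probe sets were lower.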
